A study of Mus musculus with 35 samples.

Results

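The transcriptome of NMuMG cells treated for 24 h with a JNK inhibitor (JNKi) was compared with that of cells given the vehicle, DMSO, for the same time. NMuMG is an established line of mouse mammary gland epithelial cells, and the labels of these samples give the wild-type genotype (WT) and the strain E9. Each arm held 2 libraries, numbered 1 and 2, so 4 of the 35 samples of the series enter the comparison, and differences were taken within a replicate number. A gene was a member if its mean normalized read count was at least 10 in either arm, which 12202 of 20261 genes reached; 295 of them did so in 1 arm only. The protocol on these samples describes a course of TGF-β at 2 ng/ml, with fresh TGF-β and medium every 2 days, but the labels do not say whether the DMSO and JNKi arms received it, and neither arm has a counterpart labelled as free of TGF-β. They name neither the inhibitor nor its dose. Nor do they say that libraries 1 and 2 are independent cultures. Unless a smaller fit is named, each p-value below reflects the spread pooled over the 20 DMSO and JNKi libraries of all 5 times. That spread may be technical. The same arms were also profiled at 48, 72 and 96 h and at 7 d, again with 2 libraries each.

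JNK is a stress-activated kinase that phosphorylates c-Jun and other members of the AP-1 family of transcription factors, and its inhibitors act on the enzyme rather than on its transcript. TGF-β drives NMuMG cells through an epithelial to mesenchymal transition, in which cell junctions are dismantled and matrix and cytoskeletal genes are induced. ATF4, which also appears below, is a transcription factor whose translation rises under amino acid shortage and other stresses, and which induces genes for amino acid synthesis, amino acid import and the charging of tRNA.

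The 4 libraries held 18.8 to 25.8 M reads. The mammary epithelial markers summed to 344301 and 365673 normalized counts in the DMSO libraries and to 350289 and 397308 in the JNKi libraries, led by the keratins Krt8 and Krt18. Epcam and Foxa1, which mark epithelial and luminal cells, were listed at 0 in all 4 libraries. The summed markers of leukocytes were 2103 to 2473, mostly Cd14, those of fibroblasts 689 to 758, those of endothelium 469 to 544 and those of adipocytes 15.7 to 26.7, with Emr1, Cd3e, Dcn, Lum, Thy1, Emcn, Tek, Plin1 and Lep at 0 throughout. In such bulk samples fewer cells of a type and less RNA per cell cannot be told apart.

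The response at 24 h was small. Under a limma model with the replicate number as a block, 16 genes (0.131% of those tested) passed an adjusted p of 0.05, of which 13 (0.107%) rose and 3 (0.0246%) fell. The genes that rose were Btg2, Megf6, Hspg2, Lcp1, Ppbp, Hecw2, Hist2h3c1, Fgf18, Zfp36, Hist1h1c, Trp53inp1, Sgsh and Ablim1, and those that fell were Asns, Psat1 and 4833418N02Rik. The median log2 difference over all tested genes was -0.00, with quartiles of -0.09 and 0.09, and 79 genes (0.647%) were at least 2-fold higher with JNKi and 27 (0.221%) at least 2-fold lower. Without the block the same limma model called 0 genes, with 437 (3.58%) at an unadjusted p under 0.05, and adjusted p for the 16 genes ran from 0.0873 to 0.999. With the block 1427 genes (11.7%) had an unadjusted p under 0.05, 782 higher (6.41%) and 645 lower (5.29%), where 5% of the genes tested is 610.

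**Figure D1:**
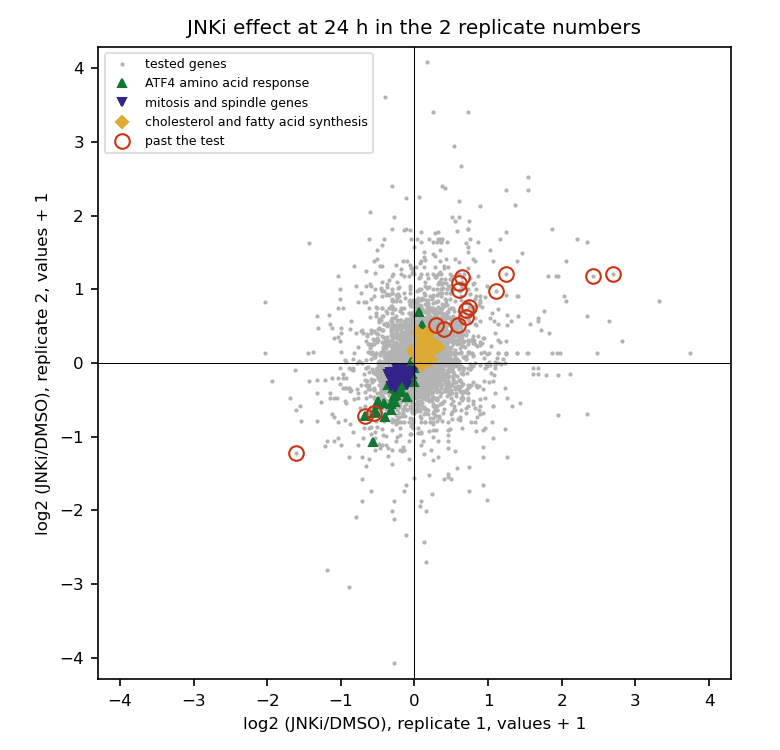
Each point is a tested gene, with the log2 difference JNKi minus DMSO of log2(value + 1) in replicate number 1 on the horizontal axis and in number 2 on the vertical axis. Red rings mark the 16 genes past the limma test, and coloured symbols mark 3 gene lists: ATF4 amino acid response genes lie mostly to the lower left (32 of 36 lower in both numbers), mitosis genes all to the lower left, and genes of cholesterol and fatty acid synthesis to the upper right (27 of 30 higher in both numbers).

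The upstream sequences shown here belong to Asns and Psat1, which fell, to Slc7a11 and Chac1, chosen because they hold the same word as Asns although neither passed the test, and to Btg2, the gene with the smallest p. Asns encodes asparagine synthetase, Psat1 an aminotransferase of serine synthesis, Slc7a11 the transporter that imports cystine in exchange for glutamate, and Chac1 an enzyme that degrades glutathione. They are the 250 bases before the RefSeq start (GRCm38.p6), at chr6:7693210-7693459, chr19:15925060-15925309, chr3:50443614-50443863, chr2:119350992-119351241 and chr1:134079156-134079405, on the minus strand except Chac1 on the plus strand. Capitals mark words searched on both strands: the ATF4-type element TGATGNAA in Asns, Slc7a11 and Chac1, and the cAMP response element TGACGTCA in Btg2. Psat1 holds none of the words searched.
Asns: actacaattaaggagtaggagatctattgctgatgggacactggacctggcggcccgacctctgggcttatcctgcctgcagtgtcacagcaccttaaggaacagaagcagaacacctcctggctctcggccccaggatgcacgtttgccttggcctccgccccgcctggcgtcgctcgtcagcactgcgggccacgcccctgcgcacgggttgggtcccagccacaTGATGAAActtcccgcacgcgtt
Psat1: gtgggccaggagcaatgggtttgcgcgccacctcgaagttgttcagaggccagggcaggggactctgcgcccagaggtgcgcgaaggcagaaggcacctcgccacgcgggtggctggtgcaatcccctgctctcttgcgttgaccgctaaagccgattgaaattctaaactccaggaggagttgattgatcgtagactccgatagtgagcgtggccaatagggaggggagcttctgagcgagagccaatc
Slc7a11: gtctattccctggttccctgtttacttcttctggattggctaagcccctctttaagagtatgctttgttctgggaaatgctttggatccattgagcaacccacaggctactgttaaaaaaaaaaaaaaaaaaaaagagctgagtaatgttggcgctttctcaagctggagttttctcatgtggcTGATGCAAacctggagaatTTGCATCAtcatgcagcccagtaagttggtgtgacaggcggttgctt
Chac1: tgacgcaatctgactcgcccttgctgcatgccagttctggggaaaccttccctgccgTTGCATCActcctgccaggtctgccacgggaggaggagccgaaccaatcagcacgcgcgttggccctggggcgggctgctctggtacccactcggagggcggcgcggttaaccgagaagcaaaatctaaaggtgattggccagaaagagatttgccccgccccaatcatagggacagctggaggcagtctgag
Btg2: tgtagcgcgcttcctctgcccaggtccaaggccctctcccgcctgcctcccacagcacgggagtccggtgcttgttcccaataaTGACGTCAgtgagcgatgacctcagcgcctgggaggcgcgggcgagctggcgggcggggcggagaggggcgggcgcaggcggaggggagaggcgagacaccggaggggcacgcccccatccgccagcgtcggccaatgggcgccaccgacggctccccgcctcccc
The element begins 23 bases before the Asns start, 66 and 47 bases before that of Slc7a11, and 193 bases before that of Chac1, and the Btg2 word begins 166 bases before its start. None of these words overlaps another motif searched. In windows of 250 bases before to 50 after the start, TGATGNAA was found in 11 of the 29 matched genes of the ATF4 list (37.9%). It was found in 2.23% of the 9696 tested genes with a window and in 1096 of 27025 genes of the RefSeq table (4.06%). Of the 3 genes that fell, 1 (Asns) holds it, and Psat1 and 4833418N02Rik hold none of the words searched. The AP-1 word TGANTCA was in 2 of those 29 windows (6.9%). It allows any base at N and so is wider than TGACTCA, the site that Jun and Fos dimers bind. The word was in 1 of 12 windows of the genes that rose, as TGAATCA in Ppbp. Its share was 5.34% of the windows of the tested genes and 7.93% of the whole table. The cAMP response element marked in Btg2 was in 3.37% of the windows of the tested genes. These matches describe sequence only, and the ATF4 list was itself compiled from genes known as ATF4 targets.

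Genes of amino acid metabolism supplied 2 of the 3 genes that fell, and most of the rest lay below 0. Of 36 ATF4 amino acid response genes tested (38 listed), 33 had a negative difference, 32 were lower with JNKi in both replicate numbers (31.9% of all tested genes were), and 23 had both JNKi libraries below both DMSO libraries (12.6% of all tested genes). Asns and Psat1 passed the test. At an unadjusted limma p under 0.05, 22 members lay downward (5.29% of all tested genes) and 1 upward (6.41%). The list's median was -0.28, with -0.22 in replicate number 1 and -0.34 in number 2, beside -0.00 over all tested genes.

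Asns counted 6216 and 7008 in the DMSO libraries and 3910 and 4247 in the JNKi libraries, a log2 difference of -0.70 ± 0.11 (SE, limma adjusted p = 0.0233). Psat1 counted 9244 and 11714 against 6324 and 7348, a difference of -0.61 ± 0.10 (limma adjusted p = 0.0299). In both genes the JNKi libraries lay below the DMSO libraries without overlap. The subsets of this list by role, given here and below, were formed after its values were seen. All 5 enzymes of serine and one-carbon metabolism tested were lower in both numbers, with a median of -0.48. Phgdh, which starts serine synthesis, was nearest to 0 at -0.16. Shmt2, the mitochondrial serine hydroxymethyltransferase, counted 7616 and 9021 with DMSO and 5409 and 6132 with JNKi. Its difference of -0.53 did not pass the test.

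The 8 amino acid transporters tested were also lower in both numbers, with a median of -0.31 and values from -0.82 to -0.04. Slc7a11 stood at the low end, with 421.6 and 517.5 counts against 284.5 and 246.0, a difference of -0.82 ± 0.23 that did not pass the test (limma adjusted p = 0.198). Slc7a5, the large neutral amino acid transporter, was at -0.50 and Slc38a2, which imports small neutral amino acids, at -0.04. All 11 aminoacyl-tRNA synthetases, which load amino acids onto tRNA, were lower in both numbers, 10 of them without overlap, with a narrow range of -0.36 (Nars) to -0.09 (Eprs) and a median of -0.28. None passed the test singly.

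The stress regulators and other members, a subset likewise formed after the values were seen, were more mixed, with 8 of 11 below 0. Chac1 counted 1723 and 1864 with DMSO and 1198 and 1178 with JNKi, a difference of -0.59 that did not pass the test (limma adjusted p = 0.198). Trib3, a pseudokinase induced by ATF4, was at -0.48, Atf5 at -0.31 and Atf4 itself, with 14998 and 18756 against 13281 and 15223 counts, at -0.24. Ddit3, which encodes the stress factor CHOP, had 170.1 and 122.5 against 167.5 and 121.4 counts, a difference of -0.02, and its libraries overlapped. The 23 ER chaperone and unfolded protein response genes had a median of 0.04, with 17 above 0 and none past the test. At the later times the ATF4 list's median was -0.04 (48 h), 0.18 (72 h), -0.10 (96 h) and -0.23 (7 d), with 0.02 for the mean of 48 to 96 h, so a median below 0 was not limited to 24 h.

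**Figure D2:**
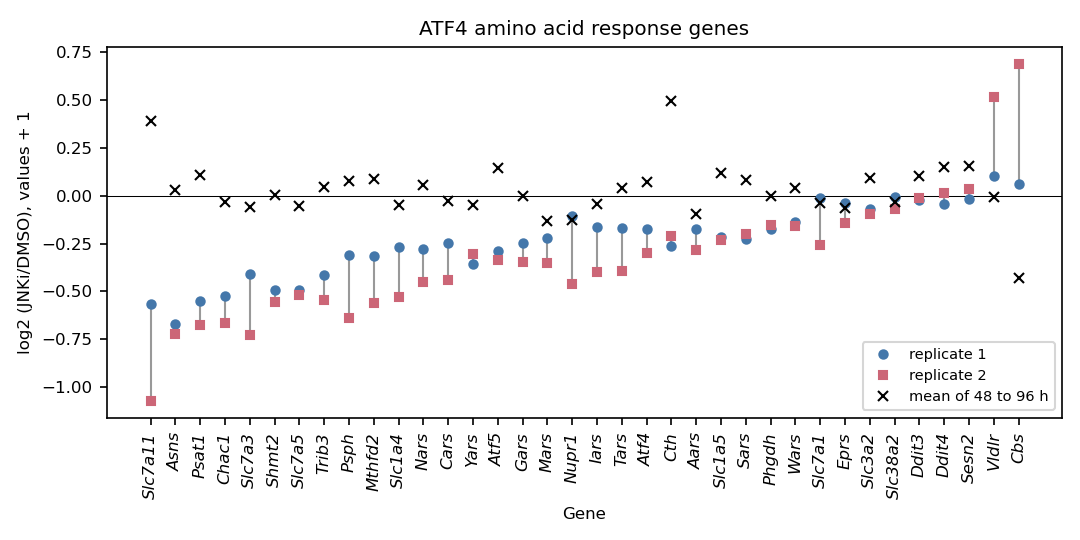
The 36 tested ATF4 amino acid response genes in the order of their log2 difference JNKi minus DMSO at 24 h, with circles for replicate number 1, squares for number 2 and crosses for the mean difference over 48, 72 and 96 h. At 24 h, 33 genes have a mean difference below 0, from -0.82 in Slc7a11, whereas the crosses, which average times with medians of -0.04, 0.18 and -0.10, scatter around 0 with a median of 0.02; the median of -0.23 at 7 d is not drawn.

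The genes that rose included Btg2 and Zfp36, a pair of immediate-early genes with short-lived transcripts, and the p53 target Trp53inp1. Btg2, an antiproliferative gene induced by p53 and by growth signals, counted 1108 and 1424 with DMSO and 1845 and 2424 with JNKi, a log2 difference of 0.75 ± 0.07 (limma adjusted p = 0.00013). Zfp36, which encodes the mRNA-destabilizing protein tristetraprolin, counted 282.5 and 284.0 against 440.8 and 642.3, a difference of 0.91 ± 0.14 (limma adjusted p = 0.0177). Neither gene's groups overlapped. Trp53inp1, a stress protein induced by p53, counted 1962 and 1355 against 2581 and 1866, so that the groups overlapped while the difference within each number was positive (0.43 ± 0.07, limma adjusted p = 0.0348).

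The other genes of these lists gave no call. Of 27 immediate-early genes tested, Btg2 and Zfp36 included, 19 were above 0 with a median of 0.06. At an unadjusted limma p under 0.05, 5 lay upward (6.41% of all tested genes), with the called Btg2 and Zfp36 among them. None lay downward (5.29%). Egr1, an early growth response factor, showed how far the replicate numbers differed: 459.6 and 3504.5 counts with DMSO, 546.5 and 5668.5 with JNKi, and a difference of 0.47 that did not pass. Of 26 p53 target genes, 19 were above 0 with a median of 0.05, and the CDK inhibitor gene Cdkn1a counted 4576 and 4250 against 5186 and 5213, a difference of 0.24 that did not pass (limma adjusted p = 0.332). Of 17 MAPK phosphatase and Sprouty genes, which dampen MAP kinase signalling, 13 were higher in both numbers (30.7% of all tested genes were) and none passed.

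**Figure D3:**
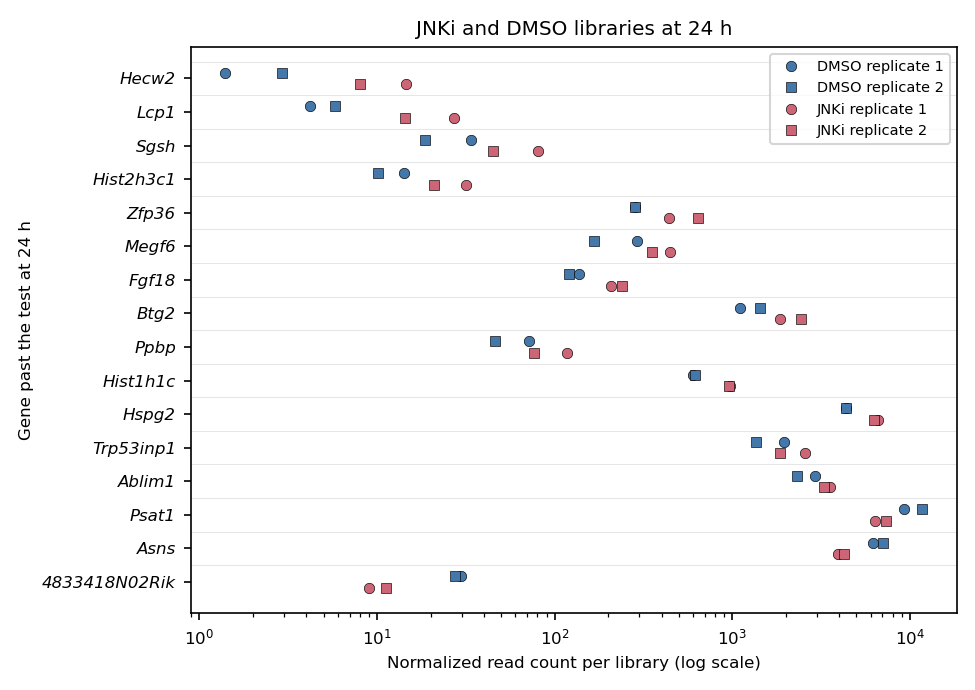
Normalized read counts on a log axis for the 16 genes past the limma test at 24 h, ordered by log2 difference, with DMSO libraries in blue, JNKi libraries in red, circles for replicate number 1 and squares for number 2. The groups do not overlap in 15 of the genes, Trp53inp1 being the exception, and Hecw2 and Lcp1 lie under 10 counts in both DMSO libraries.

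Hspg2, which encodes the basement membrane proteoglycan perlecan, counted 4391 and 4377 with DMSO and 6611 and 6276 with JNKi, a difference of 0.56 ± 0.08 (limma adjusted p = 0.0173). Megf6, a protein with EGF-like repeats, counted 292.3 and 167.2 against 446.4 and 354.7 (0.84 ± 0.11, limma adjusted p = 0.00676). Fgf18, a secreted fibroblast growth factor, counted 136.3 and 119.7 against 206.9 and 238.1, and Ppbp, a chemokine precursor known from platelets, 71.7 and 46.1 against 116.9 and 76.7, with differences of 0.79 and 0.71. In Hspg2, Megf6, Fgf18 and Ppbp the JNKi libraries lay above the DMSO libraries.

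The other genes that passed were of mixed kind. Ablim1, an actin-binding LIM protein, counted 2907 and 2307 against 3561 and 3291, the smallest called difference (0.40 ± 0.07, limma adjusted p = 0.0489). The histone genes Hist1h1c and Hist2h3c1 rose by 0.67 and 1.04. Histone genes occur in near-identical copies, and how reads shared among copies were counted is not given in the sources used here. Sgsh, a lysosomal sulfatase that degrades heparan sulfate, had 33.7 and 18.7 counts against 81.0 and 44.7.

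At the lowest levels, Lcp1, an actin-bundling protein typical of leukocytes, counted 4.2 and 5.8 with DMSO and 27.0 and 14.4 with JNKi. Hecw2, a ubiquitin ligase, counted 1.4 and 2.9 against 14.6 and 8.0. The DMSO values stand for 3 and 4 reads of Lcp1 and for 1 and 2 reads of Hecw2. Both genes were members through the JNKi arm alone, so a difference was built into their selection, and the leukocyte marker Ptprc was listed at 0 and 0 against 3.4 and 1.6. The non-coding transcript 4833418N02Rik had 29.5 and 27.4 counts against 9.0 and 11.2, a difference of -1.41 ± 0.24 (limma adjusted p = 0.0287). Leaving out the 24 h libraries of replicate number 2, or those of number 1, leaves 1 library per arm at 24 h. Most of the 16 genes lost their call in either case. Within number 1 alone the differences were -1.61 for 4833418N02Rik, 2.43 for Lcp1 and 2.70 for Hecw2. Within number 2 alone they were -1.22, 1.18 and 1.21.

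The genes of the inhibited pathway showed little difference in transcript level. Of 24 JNK cascade kinases and scaffolds tested, none passed, 1 had an unadjusted limma p under 0.05 and the median was 0.01. Mapk8, which encodes JNK1, counted 684.5 and 824.6 with DMSO and 756.8 and 754.1 with JNKi, and Mapk9, which encodes JNK2, 2437 and 2240 against 2459 and 2115. In both the groups overlapped. Map3k1, an upstream kinase, had the widest difference of the list, 0.34 ± 0.10 (limma adjusted p = 0.221).

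None of the 15 AP-1 and related bZIP factors passed the test, and their median was 0.06. Jun, the main substrate of JNK and a gene that AP-1 itself induces, counted 1865 and 2282 with DMSO and 2061 and 2248 with JNKi, a difference of 0.06 ± 0.08. Junb was at 0.07, Jund at 0.03, Fosl1 at -0.03 and Fosl2 at 0.06, all with overlapping groups. Fos counted 1366 and 2864 against 1625 and 4418, and Atf3 559.4 and 968.7 against 644.3 and 1254.2. Their differences of 0.44 and 0.29 did not pass (limma adjusted p = 0.178 and 0.536), and in both genes the gap between replicate numbers was wider than that between arms.

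The defining genes of the mesenchymal transition likewise gave no call. Cdh1, which encodes E-cadherin, counted 11689 and 10599 with DMSO and 13779 and 13911 with JNKi, without overlap, a difference of 0.31 ± 0.09 that did not pass (limma adjusted p = 0.2). Cdh2, which encodes N-cadherin, was at -0.04, the intermediate filament gene Vim at -0.08, and Fn1, which encodes fibronectin, at 0.16. Snai1, a repressor of Cdh1, counted 771.6 and 654.5 against 681.4 and 551.2 (-0.21), and Zeb1 and Zeb2, repressors of the same kind, were at 0.07 and -0.02. Of 24 epithelial junction and polarity genes, 15 were higher in both numbers (30.7% of all tested genes were) and 10 lay above without overlap (14.5% did). Another 3 lay below without overlap (12.6% of all tested genes), with Pkp1 at -0.34 among them. The list's median was 0.09, and no gene of it passed the test. The 12 transition factors tested had a median of 0.08, the 29 mesenchymal cytoskeleton and adhesion genes 0.08, and the 37 TGF-β signalling genes 0.06, each with no gene past the test.

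Differences of proliferation genes were small and below 0, and no gene passed the test. All 35 mitosis and spindle genes tested were lower with JNKi in both replicate numbers (31.9% of all tested genes were), with a median of -0.21 (-0.24 in number 1 and -0.18 in number 2) and a range of -0.31 to -0.06. None passed the test, 27 had an unadjusted limma p under 0.05 downward (5.29% of all tested genes), and 8 lay below without overlap (12.6%). The fit on the 4 libraries of 24 h alone leaves 1 residual degree of freedom per gene. It called 928 of the 12202 tested genes, 446 lower and 482 higher, and 29 of these 35 lower. Bub1, a spindle checkpoint kinase, counted 2519 and 3032 with DMSO and 2024 and 2448 with JNKi (-0.31, limma adjusted p = 0.198), and Top2a, which untangles DNA, 17546 and 20674 against 15556 and 18079 (-0.18). In both genes number 2 was higher than number 1 in each arm, by about as much as the arms differed.

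All 41 DNA replication and S-phase genes were below 0, 40 of them in both numbers (31.9% of all tested genes), with a median of -0.20. Of the 41, 19 had an unadjusted limma p under 0.05 downward (5.29% of all tested genes) and none passed the test. The fit on the 4 libraries of 24 h alone called 25 lower (446 of all 12202 tested genes). Prim1, the primase that starts DNA strands, counted 1241 and 1642 against 985 and 1251 (-0.36), and Tyms, thymidylate synthase, 1406 and 1953 against 1193 and 1467 (-0.32). When a DMSO or JNKi library at 24 h was left out without the block, the replication list's median ranged from -0.38 to -0.02 and that of the mitosis list from -0.38 to -0.06. Ccnd1, which encodes cyclin D1, counted 20368 and 22546 against 20717 and 23411, a difference of 0.04 with overlapping groups. Over 48 to 96 h the medians of the mitosis and replication lists were -0.03 and -0.06.

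Sterol and fatty acid genes lay on the other side. All 30 genes of cholesterol and fatty acid synthesis tested were above 0, 27 in both numbers (30.7% of all tested genes) and 13 without overlap (14.5%), with a median of 0.15, 8 with an unadjusted p under 0.05 upward (6.41%) and none past the test. Leaving out a 24 h library without the block moved this median between 0.06 and 0.26. The fit on the 4 libraries of 24 h alone, with 1 residual degree of freedom, called 14 of the 30 higher (482 of all 12202 tested genes). Insig1, which holds back sterol synthesis, had the highest value (0.30), followed by Mvd, a mevalonate pathway enzyme (0.27). Scd1, a fatty acid desaturase, counted 2423 and 2322 against 3030 and 2703 (0.27). Of 75 ribosomal protein genes, which have many processed copies in the genome, 73 were below 0 and 69 lower in both numbers (31.9% of all tested genes). Of the 75, 9 lay below without overlap (12.6% of all tested genes), and the list's median was -0.10. That median lay at 0.02 when the JNKi library of number 1 was left out without the block.

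**Figure D4:**
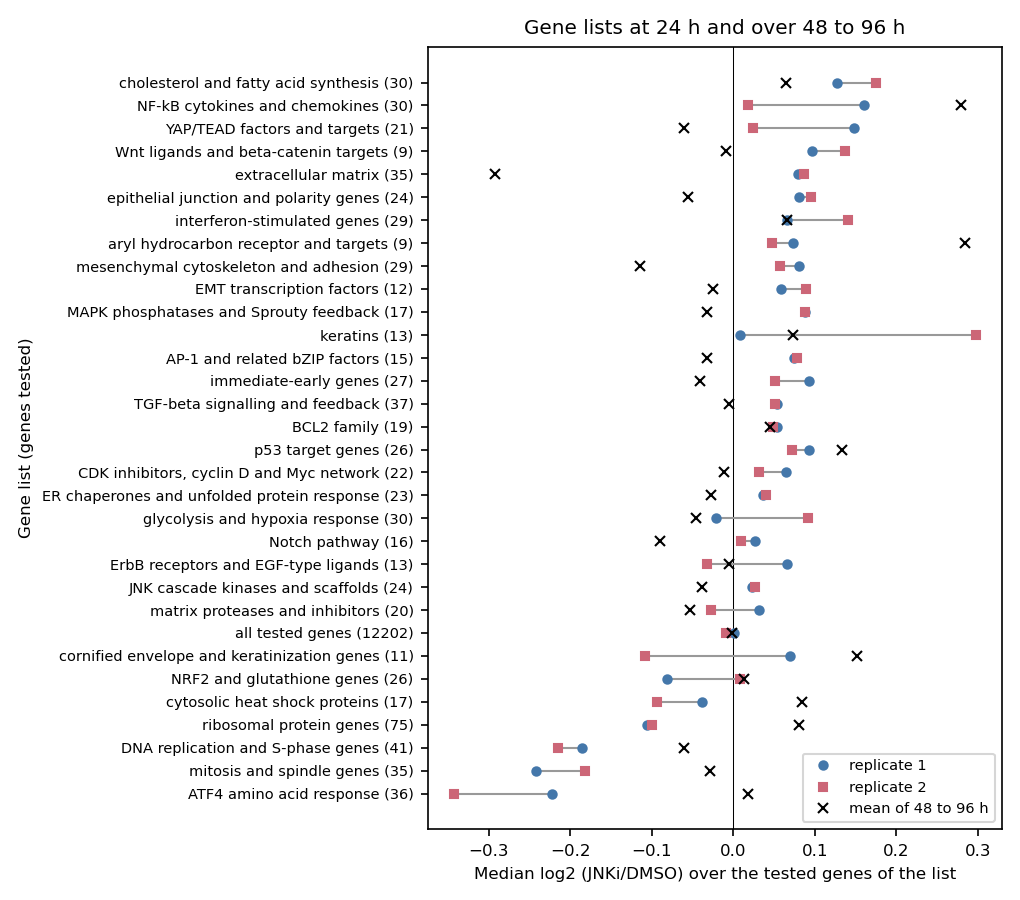
Median log2 difference JNKi minus DMSO over the tested genes of each list with at least 9 tested genes, with circles for replicate number 1, squares for number 2 and crosses for the mean of 48, 72 and 96 h; the number of genes tested is in brackets. By the 24 h median over both numbers, which is not drawn, the ATF4, mitosis and DNA replication lists are lowest (-0.28, -0.21 and -0.20). The cholesterol list is highest by that median (0.15). The highest circle is that of the NF-kB list (0.16) and the highest square that of the keratin list (0.30). The cross of the extracellular matrix list lies at -0.29.

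Other differences were large in size but did not pass the test. At means of 100 or more and with no overlap of the arms, Mep1a, a meprin metalloprotease, counted 163.0 and 56.2 against 266.5 and 175.7 (1.17), and Serpina1b, a secreted protease inhibitor, 2006 and 1507 against 2813 and 3336 (0.82). Vcam1, an adhesion molecule induced by NF-kB, was at 0.80, Cyp2c65 at 0.84 and C1rl at 0.84, with limma adjusted p of 0.146 to 0.438 over these 5 genes. On the lower side Mns1 was at -0.74, Fgf21, a secreted metabolic hormone, at -0.69, Bcl2l15, a BCL2 relative, at -0.67 and Glrp1 at -0.63, with adjusted p of 0.157 to 0.27. Egln3, an oxygen-sensing prolyl hydroxylase, counted 739.3 and 608.3 against 959.2 and 955.4, without overlap, a difference of 0.51 ± 0.10 (limma adjusted p = 0.0885).

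The remaining lists held no gene past the test. The 30 NF-kB cytokine and chemokine genes had a median of 0.12, with 11 above without overlap (14.5% of all tested genes) and none past the test. The 29 interferon-stimulated genes had a median of 0.08. The 26 NRF2 and glutathione genes had a median of -0.05, with the heme-degrading enzyme gene Hmox1 at -0.36 (1176 and 1362 against 930 and 1042) and Osgin1, an oxidative stress gene, at 0.39. Timp3 and Timp1, inhibitors of matrix metalloproteases, were at -0.65 and -0.26, both without overlap, and Mmp13, a collagenase, at 0.43. Erbb3, an ErbB receptor, was at 0.59. None of these genes passed the test.

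The differences at 24 h were set against those of the same arms at later times, which used other libraries. Over the mean of 48, 72 and 96 h the limma model called 1289 genes (10.6%), 490 higher (4.02%) and 799 lower (6.55%), against 136 (1.11%) without the replicate block. Of the 13 genes that rose at 24 h, 6 were called higher over 48 to 96 h (Hist1h1c, Hist2h3c1, Ppbp, Sgsh, Trp53inp1 and Fgf18) and 1, Hspg2, was called lower. None of the 3 genes that fell at 24 h was called over 48 to 96 h, where Asns was at 0.03, Psat1 at 0.10 and 4833418N02Rik at -0.07. At 7 d, where 1641 genes (13.4%) were called higher and 1900 (15.6%) lower, 6 of the 13 genes kept a positive sign, and Megf6 and Hspg2 stood at -0.96 and -0.82.

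The test of the difference between 24 h and 48 to 96 h passed for 176 genes (1.44%), 132 more positive at 24 h (1.08%) and 44 more negative (0.361%). Without the replicate block it passed for 6 (0.0492%). In 128 of the 132 the differences had opposite signs, with medians of 0.23 at 24 h and -0.22 later. Among the 44 more negative genes the medians were -0.25 and 0.24. Both sets were selected on this same contrast of times, which favours medians on opposite sides of 0. At 24 h itself, 7 of the 132 and 3 of the 44 were called. The set of 132 had a median transcript length of 6425 nt and a median GC content of 54.9%, against 3357 nt and 49.8% for all tested genes. With transcript length and GC content adjusted for, an alternative chosen after seeing the data, 37 genes passed.

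Of 35 extracellular matrix genes tested, 25 were above 0 at 24 h with a median of 0.10. Over 48 to 96 h 20 were called lower (6.55% of all tested genes) and 2 higher (4.02%), with a median of -0.29. The difference between the times passed for 12 of the 35, all more positive at 24 h (1.08% of all tested genes were called that way): Hspg2, Lamb2, Lama5, Tnc, Col5a1, Col4a1, Col4a2, Thbs1, Lamc1, Col18a1, Col12a1 and Fn1. Without the replicate block 3 of the 12 passed (Hspg2, Lama5 and Col5a1), and with the length and GC adjustment 5 (Hspg2, Lamb2, Tnc, Col5a1 and Thbs1). The list's median transcript length was 5784 nt and its median GC content 54.7%, on the same side of all tested genes as the 132.

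Hspg2 counted 14033 and 13904 with DMSO at 48 h and 12231 and 10998 with JNKi, so that the order of the arms at 24 h was turned round by 48 h (0.56 at 24 h, -0.40 over 48 to 96 h, limma adjusted p of the difference 0.000438). Lama5, a laminin chain, counted 16409 and 14645 against 19599 and 17744 at 24 h (0.27), and stood at -0.34 later. Col4a1, a basement membrane collagen, counted 8763 and 10007 against 10502 and 10792 (0.19), and stood at -0.40 later. At 24 h Lama5 and Col4a1 did not pass the test. In the DMSO arm Hspg2 itself went from 4391 and 4377 counts at 24 h to 14033 and 13904 at 48 h, and Megf6 from 292.3 and 167.2 to 1855 and 2016; this change over time shares its 24 h libraries with the JNKi comparison.

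**Figure D5:**
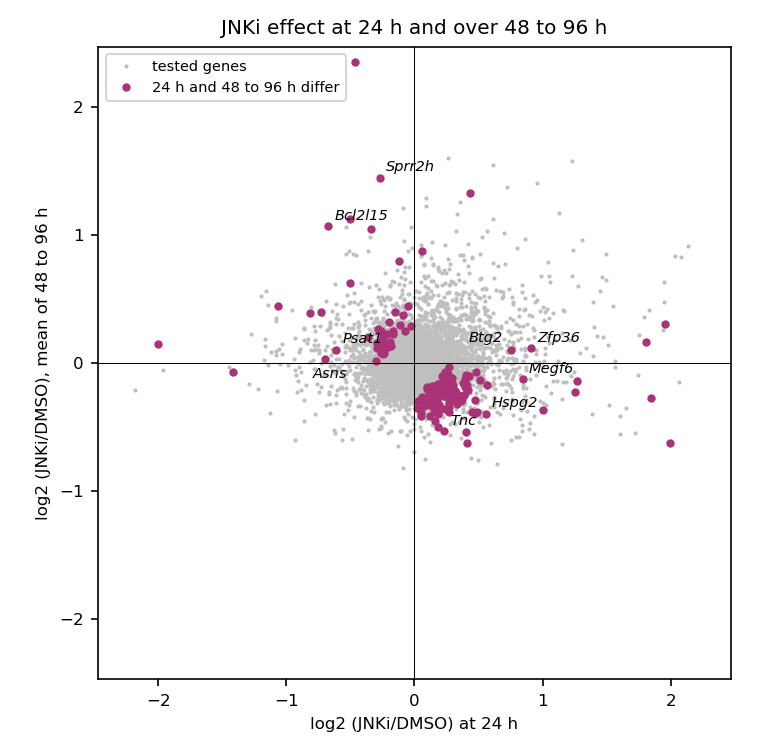
Each point is a tested gene, with its log2 difference JNKi minus DMSO at 24 h on the horizontal axis and the mean difference over 48, 72 and 96 h on the vertical axis. Purple points mark the 176 genes whose differences passed the limma test against each other, 132 of them more positive at 24 h, such as Hspg2 (0.56 and -0.40), and 44 more negative, such as Sprr2h (-0.27 and 1.45).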

How the data were processed

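RNA-seq libraries of NMuMG cells were deposited as a table of normalized read counts for 20261 genes in 20 libraries, DMSO or JNKi at 5 times. Per the submitters' processing notes the authors used TopHat, HTSeq and DESeq with the mm9 build. Which step each tool served, its version, the annotation and the handling of strand were not given in the sources used here. The deposited values are a normalized signal, gene counts divided by a size factor for each library. Whole reads recovered from the value of 1 read came out within 0.1 of an integer for 100% of values. Libraries at 24 h held 18.8 to 25.8 M reads, those at other times 9.49 to 48.6 M. Replicates differed by more than sampling noise (chi-square per degree of freedom 14.5 for DMSO and 16.3 for JNKi at 24 h).

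From these values log2(value + 1) was fitted in limma 3.58.1 (R 4.3.3) with trended variance, over all 20 libraries with 10 group means and the replicate number as a block within each time (5 residual degrees of freedom). All times entered so that they shared 1 estimate of the spread. The Benjamini-Hochberg adjustment ran over the 12202 genes that averaged 10 or more in either 24 h arm, with a threshold of 0.05. The code was tested on simulated data. Alternatives were the fit without the block, other pseudocounts, filters and scalings, left-out libraries or times, and edgeR 4.0.16 and DESeq2 1.42.0 on the recovered reads. At 24 h edgeR called 6 genes and DESeq2 29.

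Genes were named if they passed the test, if they were among the 8 widest differences each way with a mean of at least 100, the same sign in both numbers and no overlap, if they belonged to a fixed set of JNK, AP-1 and transition genes, or if they were among the 3 widest of a list with a mean of at least 50 and the same sign in both numbers. Not every gene of the fixed set is reported here. Members of the amino acid, mitosis, replication, sterol and matrix lists were also named as examples of their roles. The comparison, the members and the lists were chosen with earlier results of these data known. Promoter windows came from RefSeq, matched by symbol. The separate time-course table was not used here.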

Additional observations from a re-analysis of the deposited data

Results flagged for a closer look

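For 24 of the 126 genes named by rule, the JNKi effect at 24 h differed from the mean effect over 48 to 96 h by limma's test of the difference itself (adjusted p under 0.05, replicate block). Values here are the log2 effect at 24 h minus the later effect, and no explanation was tested. Without the replicate block 3 of the 24 passed (Hspg2, Sprr2h and Bcl2l15) and 21 did not, and with the length and GC adjustment 7 passed. Of the genes called at 24 h, the difference was 0.95 for Hspg2, 0.65 for Btg2, 0.97 for Megf6, 0.49 for Ablim1, 0.79 for Zfp36, 1.64 for Lcp1 and 1.65 for Hecw2, the last pair resting on 1 to 4 reads in each 24 h DMSO library. It was -0.72 for Psat1, -0.73 for Asns and -1.34 for 4833418N02Rik. Genes not called at 24 h with a positive difference were Wnt4, a Wnt ligand (0.50), the phosphatase gene Dusp1 (0.46), Egr1 (0.86), the feedback inhibitor Spry1 (0.48), Osgin1 (0.52), the eIF2α kinase gene Eif2ak3 (0.34), Col12a1 (0.62) and Fn1 (0.62). Those with a negative difference were the cornified envelope genes Sprr2h (-1.72) and Sprr1b (-0.44), Bcl2l15 (-1.74), Hmox1 (-0.57), Slc7a11 (-1.21) and Mmp13 (-0.89). Of these uncalled genes, Mmp13 was above 0 at both times, at 0.43 and 1.33.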

How the results depend on the processing

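The labels give the replicate numbers 1 and 2 but do not say that a number marks a shared culture or day. Deviations of same-numbered libraries from their group means correlated at 0.73 at 24 h, at 0.53 to 0.72 at 48 to 96 h and at 0.07 at 7 d (9605 genes averaging 200 or more). The pairing therefore rests on the data as a hint only. With the replicate block 16 genes were called at 24 h, 1289 over 48 to 96 h and 176 for the difference, and with no replicate block 0, 136 and 6. Without the block and with a 24 h library left out, the 24 h calls ranged from 0 to 10 (10 without DMSO replicate 1, and 223 to 877 genes at an unadjusted p under 0.05 where limma called 0), and the later and difference calls from 135 to 140 and from 1 to 19 (19 without DMSO replicate 1, 1 without DMSO replicate 2 or JNKi replicate 1, 3 without JNKi replicate 2). With the block, leaving out replicate number 2 or 1 gave 4 and 12 genes at 24 h, and 3 and 12 for the difference; an arm left with 1 library was assumed to vary like the other groups. At 24 h, pseudocount 8 gave 10 genes, a minimum mean of 50 gave 9, a log2 difference of at least 1 gave 5, edgeR 6 and DESeq2 29 (5 of the 16 genes shared by each). A fit on the 4 libraries of 24 h alone, with its own estimate of the spread and 1 residual degree of freedom, called 928 genes, 14 of them shared. Limma without the trend called 0 genes at 24 h and 0 for the difference (1280 and 1864 at an unadjusted p under 0.05), and 492 later. DESeq2 called 837 genes later, and no filter on low values 110 for the difference. Without the libraries of 7 d the calls were 44, 1946 and 536. Without those of 72 h they were 175 later and 45 for the difference, and without those of 96 h 590 and 93. The length and GC adjustment, added after seeing the data, gave 37 for the difference. None of the 16 genes changed sign in any of these settings, but all settings reuse the 24 h values by which the genes were picked. In all of them but Trp53inp1 the arms did not overlap, so leaving out a library could not turn the sign. Btg2 and Megf6 passed most often, in 17 of 24 settings, and Sgsh and Ablim1 least often, in 6 and 8 of 24. Depth limits genes near 10 counts, where 1 read is worth 1.12 to 1.60 counts.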
